A study of Mus musculus with 20 samples.

Results

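The genes described here encode the Wnt ligands, their Frizzled and LRP receptors, the secreted inhibitors that bind either of them, and Axin2. Members were chosen by gene symbol alone: every symbol that begins with Wnt, Fzd, Sfrp or Dkk followed by a digit, plus Lrp5, Lrp6, Wif1, Frzb and Axin2. This gave 42 of the 47069 genes in the count table, made up of 19 ligands, 12 receptors, 10 secreted inhibitors and Axin2. RNA was sequenced from whole kidneys of 20 mice of the 129SJ x C57Bl/6J background, killed at 15 weeks of age. WT mice (n = 5) carried Col4a3 and received nothing. The 3 other groups were Col4a3-/-, a model of Alport syndrome that lacks the collagen IV alpha3 chain in the whole body, and were treated from 5 weeks of age. Veh mice (n = 6) received PBS alone under the skin each week. Anti-miR-21 mice (n = 6) received lademirsen, an antisense oligonucleotide that blocks miR-21, injected under the skin each week at a dose of 50 mg/kg. ACEi mice (n = 3) drank ramipril, an inhibitor of the angiotensin converting enzyme, at 11 mg/L of water; for the survival study in this model the methods add that mice on ramipril were also injected with PBS each week. A whole kidney is a mixture of cells, so fewer cells of a type and less RNA per cell cannot be told apart in these values.

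Wnt proteins are secreted, lipid-modified ligands that bind Frizzled receptors. With the co-receptors Lrp5 or Lrp6 they stop the destruction of beta-catenin, which then enters the nucleus and works with TCF/LEF factors to transcribe target genes. Axin2 is such a target and feeds back on the pathway as part of the destruction complex. Other Wnt signals run through Frizzled without beta-catenin. In the embryonic kidney Wnt9b from the ureteric bud and Wnt4 in the forming nephron drive tubule formation, and Wnt7b from the collecting duct is needed for the medulla.

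Between 28474301 and 29479629 estimated counts were assigned to genes in each library. Col4a3 was lower in every knockout library than in every WT library. Its values in CPM (counts scaled to a common library size with edgeR's TMM factors, used for values between mice unless FPKM is named) were 194 to 237 in WT, 27.9 to 46.3 in Veh, 45.9 to 74.9 in Anti-miR-21 and 42.8 to 56.2 in ACEi. Markers of other cells differed strongly between groups. The 5 fibroblast markers summed to 82.5 to 199 CPM in WT mice and 1360 to 1640 in Veh mice, while the 5 proximal tubule markers summed to 11700 to 15000 and 1290 to 3630. Single libraries also stood apart in markers of tissue next to the kidney: 5 urothelium markers summed to 191 and 117 CPM in Veh mice A1 and A4 and to 35.1 in WT mouse A17, against 1.69 to 8.41 in Anti-miR-21. Adipocyte markers summed to 446 to 561 CPM in Veh mice A1, A4 and A9 and to 374 in Anti-miR-21 mouse A12, against 29.7 to 61.9 in WT. Results were therefore also computed without the mice with high urothelium markers (A1, A4 and A17) and without those with high adipocyte markers (A1, A4, A9 and A12).

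The mature sequence of miR-21a-5p, which lademirsen is directed against, is shown first, followed by its matches in the members. The gene lies on the minus strand and the mature RNA covers chr11:86584120-86584141 (GRCm38.p6, RefSeq). Capitals mark the seed, bases 2 to 8.
miR-21a-5p: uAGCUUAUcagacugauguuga

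The longest annotated 3′ untranslated region of each member (GRCm38) was searched for 3 overlapping DNA words that pair with this seed. The word ATAAGCT pairs with the whole seed, the word TAAGCTA pairs with all but its last base and ends in an A, and ATAAGCTA contains both. A match was found in 8 of the 42 members (19.05%), and in 2339 of 21020 genes overall (11.1%). The members' regions were longer, with a median of 1788.5 bases against 961. Dkk4 and Wnt3a had a match but almost no counts. The matches in the 6 members that were expressed well enough to be tested are written 5′ to 3′ on the transcript strand, with the matching word in capitals, so that they can be set beside the values that follow.
Dkk2, chr3:132179983-132179990, plus strand: aacaaaactcATAAGCTAatttacccaa
Fzd3, chr14:65195274-65195280, minus strand: aatgtttgttTAAGCTAagtgtgggga
Fzd3, chr14:65193790-65193796, minus strand: cttaagatacATAAGCTcttcactaag
Fzd3, chr14:65193749-65193755, minus strand: tcaagcttttATAAGCTgacatactgt
Fzd7, chr1:59484771-59484777, plus strand: cttgtttccgTAAGCTAcctgccccct
Fzd10, chr5:128603353-128603359, plus strand: agctcctttgTAAGCTAaagagctttc
Lrp6, chr6:134449243-134449249, minus strand: gaacttttttTAAGCTAgtatgatttt
Wif1, chr10:121100293-121100299, plus strand: tagcagcgttTAAGCTAcagtatttcc
Dkk2 held the longest of the 3 words and Fzd3 the most matches. Against Veh, lademirsen-treated kidneys had Lrp6 higher, Fzd3 and Fzd7 lower, and no call for Dkk2 and Wif1. Fzd10 was lower too, but it passed the filter on low counts only through Veh mice, so this is a description. For Dkk2 the call depended on the scaling: its log2 fold change was -0.23 (adjusted p = 0.084), but -0.31 (adjusted p = 0.023) with upper-quartile scaling. It was -0.57 (adjusted p = 0.00067) with library totals alone and -0.27 (adjusted p = 0.047) without Veh mouse A9. A match to a seed is a description of the sequence and does not show that miR-21 acts there.

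Of the 42 members, 34 had enough counts to be tested. The 8 that did not pass the filter on low counts were Dkk1 (0 to 11 counts per library), Wnt1 (0 to 9), Wnt8b (0 to 13), Fzd9 (0 to 20), Wnt3a (0 to 5), Wnt3 and Wnt8a (0 to 1 each) and Dkk4 (0 in all 20 libraries). Wnt1 was at 0 in every WT and ACEi library. Tests were made with edgeR's quasi-likelihood test, adjusted by Benjamini-Hochberg over all 17622 genes tested, and a gene was called at an adjusted p under 0.05. The filter asked for at least 3 mice at 0.345 CPM or more, taken here over library totals without the TMM factors. Wnt10b and Fzd10 met it only through Veh mice: on that scale 0 WT mice reached the level for either gene. A difference from Veh was thus a condition of their entry, and their values are given as a description.

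The first question was how untreated Alport kidneys differed from wild type. The RNA of most Wnt family members was higher in Veh than in WT kidneys: 24 of the 34 tested members were higher, 5 were lower and 5 were not called. Among all genes tested, 39.0% were higher and 34.0% were lower, and the median log2 fold change was 1.08 over the members and 0.07 over all genes. Without Wnt10b and Fzd10, 22 of 32 members were higher and 5 lower, with a median of 0.98. In 15 members, Wnt10b among them, every Veh mouse lay above every WT mouse, as it did for 28.8% of all genes. Scaling by library totals alone moved the median of all genes from 0.07 to 0.65, and then 28 members were higher and 0 lower. Leaving out the mice with high urothelium markers gave 19 members higher and 4 lower, beside 6431 higher and 5701 lower of 17377 genes. Leaving out those with high adipocyte markers gave 19 members higher and 3 lower, beside 6132 higher and 5562 lower of 17263 genes.

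**Figure D1:**
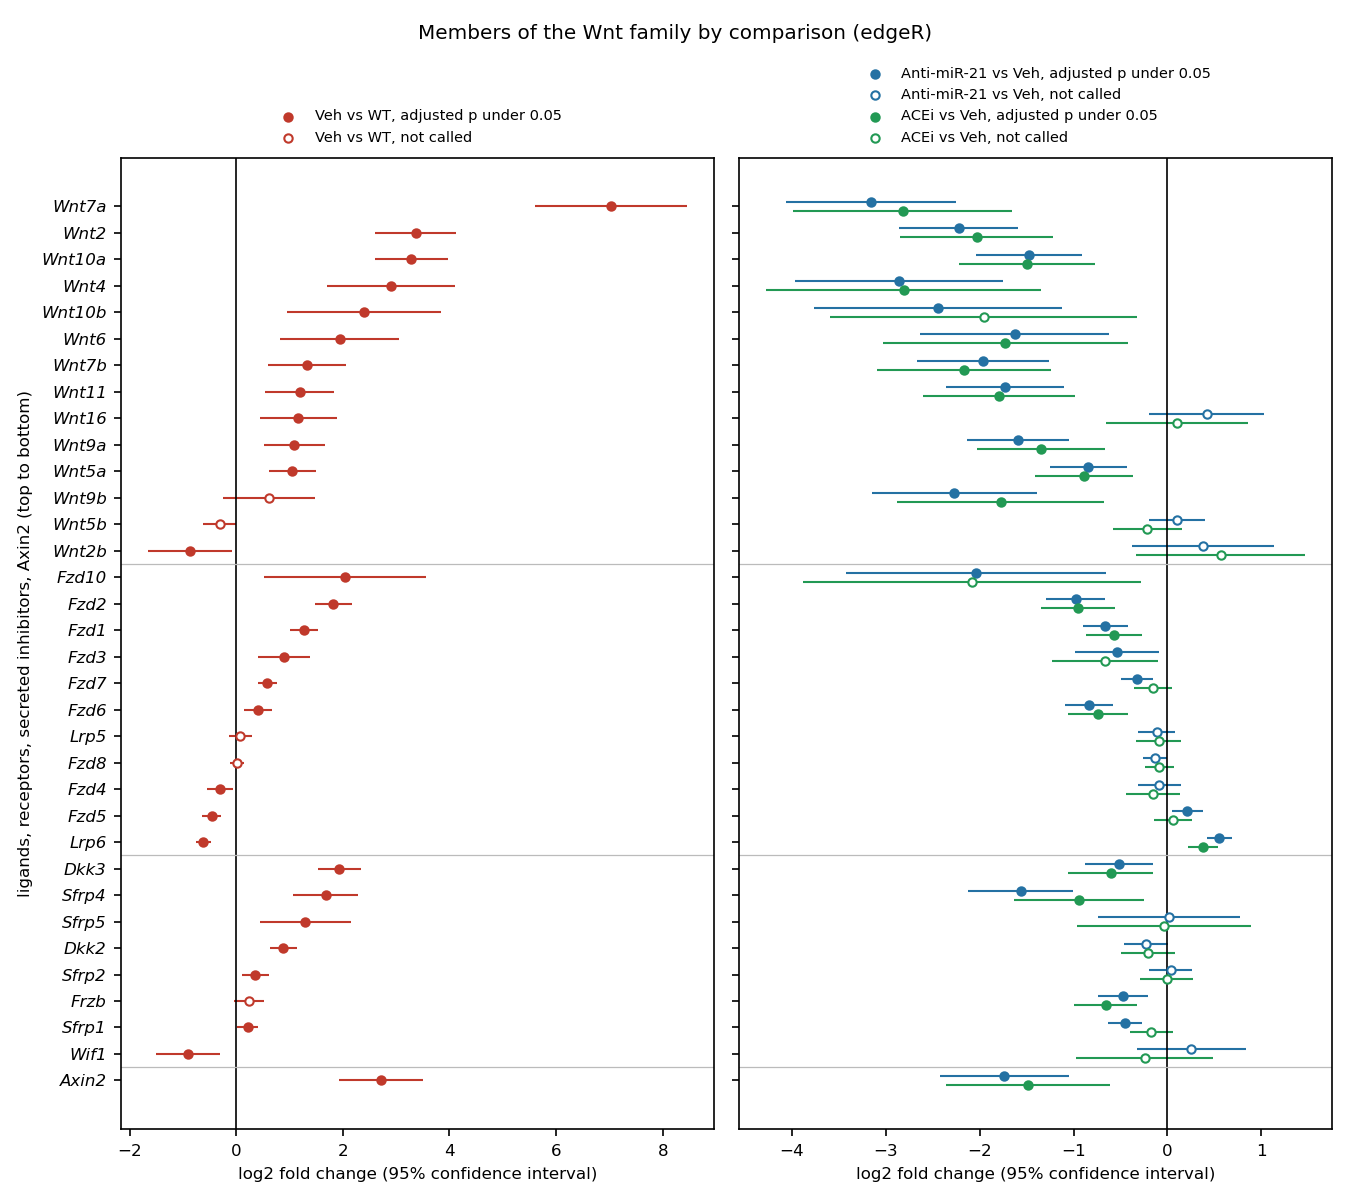
Log2 fold change of each tested member with its 95% confidence interval (edgeR, n = 5 WT, 6 Veh, 6 Anti-miR-21 and 3 ACEi mice), Veh against WT on the left and both treatments against Veh on the right; filled points passed an adjusted p of 0.05. Wnt7a stands at 7.03 on the left, and on the right 22 members under lademirsen and 17 under ramipril are filled and left of 0, while Lrp6 is filled and right of 0 for both.

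The ligands moved most. Of 14 tested ligands, 11 were higher in Veh than in WT (Wnt10b among them), 1 was lower and 2 were not called. Wnt7a, Wnt2, Wnt10a and Wnt4 had the largest differences.

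Wnt7a (ENSMUSG00000030093, chr6:91363981-91411363, minus strand, GRCm38), best known as the ligand that sets the dorsal side of the limb, was nearly absent from WT kidneys. The 5 WT mice had 0, 0, 0, 0.0845 and 0.123 CPM, which is 5 counts in all. The 6 Veh mice ranged from 2.25 to 10.4 CPM with a median of 5.15. Every Veh mouse was far above every WT mouse. Since WT held so few counts, the ratio was taken from the summed counts: it was 145, with an exact 95% interval of 62.0 to 447 that covers counting error only. The fitted log2 fold change was 7.03 ± 0.68 (SE, edgeR adjusted p = 1.2e-08).

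Wnt4 (ENSMUSG00000036856, chr4:137277489-137299726, plus strand), the ligand of nephron formation, had the highest CPM of these 4. The WT mice had 0.902, 1.38, 2.52, 5.58 and 21.2 CPM. The Veh mice ranged from 28.8 to 73.5 CPM, with a median of 41.4. The groups did not overlap, but WT mouse A17 stood well above the other 4 WT mice and came close to the lowest Veh mouse. The log2 fold change was 2.90 ± 0.58 (SE, adjusted p = 0.00014), or 7.45-fold, and 4.19 without A17 (adjusted p = 2.1e-07). In A17 the collecting duct markers (762 CPM, against 734 in A14) and the urothelium markers (35.1 CPM) were also the highest of the WT mice. The same held for its smooth muscle and mesangium, macrophage, T cell, B and plasma cell, adipocyte and tubule injury markers. The part of these cells in the result was not tested.

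Wnt2 (ENSMUSG00000010797, chr6:17988940-18030585, minus strand), a ligand of lung and endothelial development, and Wnt10a (ENSMUSG00000026167, chr1:74791516-74804179, plus strand), a ligand of teeth and skin, were also raised. Wnt2 was at 0.123, 0.127, 0.178, 0.328 and 0.336 CPM in WT and at 1.36 to 3.91 CPM in Veh, with a median of 2.21. Wnt10a was at 0.49, 0.587, 0.615, 1.27 and 1.68 CPM in WT and at 6.82 to 11.6 CPM in Veh, with a median of 9.28. Neither gene's groups overlapped. The log2 fold changes were 3.37 ± 0.37 (SE, adjusted p = 5.6e-08) for Wnt2 and 3.29 ± 0.33 (SE, adjusted p = 1.8e-08) for Wnt10a. Wnt10a lies just beyond Wnt6 on chromosome 1, and Wnt6 was higher too, by 1.94 (adjusted p = 0.003), at 0.401 to 1.21 CPM in Veh.

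Wnt7b (ENSMUSG00000022382, chr15:85535437-85582473, minus strand), the collecting duct ligand, was the most abundant Wnt per length. The WT mice had 7.80, 10.3, 16.4, 18.7 and 39.9 CPM and the Veh mice 32.0 to 67.5 CPM, with a median of 42.7. The groups overlapped only through A17, the WT mouse at 39.9. The log2 fold change was 1.34 ± 0.35 (SE, adjusted p = 0.0019) and 1.82 without A17 (adjusted p = 4e-05). An antisense gene, AU022754, overlaps exons of Wnt7b and the strand setting of the counting is not given in the sources used here, so reads of the pair cannot be told apart.

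Among the other ligands, Wnt10b, Wnt11, Wnt16, Wnt9a and Wnt5a were higher by 1.06 to 2.40 on the log2 scale. Without the mice with high adipocyte markers Wnt9a stood at 0.64 (adjusted p = 0.063) and Wnt16 at 0.88 (adjusted p = 0.078), and neither was called. Wnt10b was scarce, at 0 to 0.38 CPM in WT and 0.432 to 0.769 in Veh, and its log2 fold change of 2.40 became 3.70 without WT mouse A14. Within flow cell FCH5V5HBBXX it was 2.13 (adjusted p = 0.059). Wnt5a, the main ligand of signalling without beta-catenin, went from 8.24 to 15.4 CPM in WT to 16.9 to 37.8 in Veh (log2 fold change 1.06, adjusted p = 0.00015). Wnt11 and Wnt5a overlap antisense genes as Wnt7b does, and so do Fzd5, Fzd6 and Sfrp2, described below. Wnt9b was not called over all mice (0.61, adjusted p = 0.19): A17 had 18.6 CPM against 3.20 to 7.22 in the other WT mice, and without A17 the log2 fold change was 1.21 (adjusted p = 0.0081). Wnt5b was not called (-0.30, adjusted p = 0.071). Wnt2b was the ligand that was lower (-0.87, adjusted p = 0.044), and that call was lost without any 1 of 7 mice, with -0.49 (adjusted p = 0.24) without WT mouse A3.

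**Figure D2:**
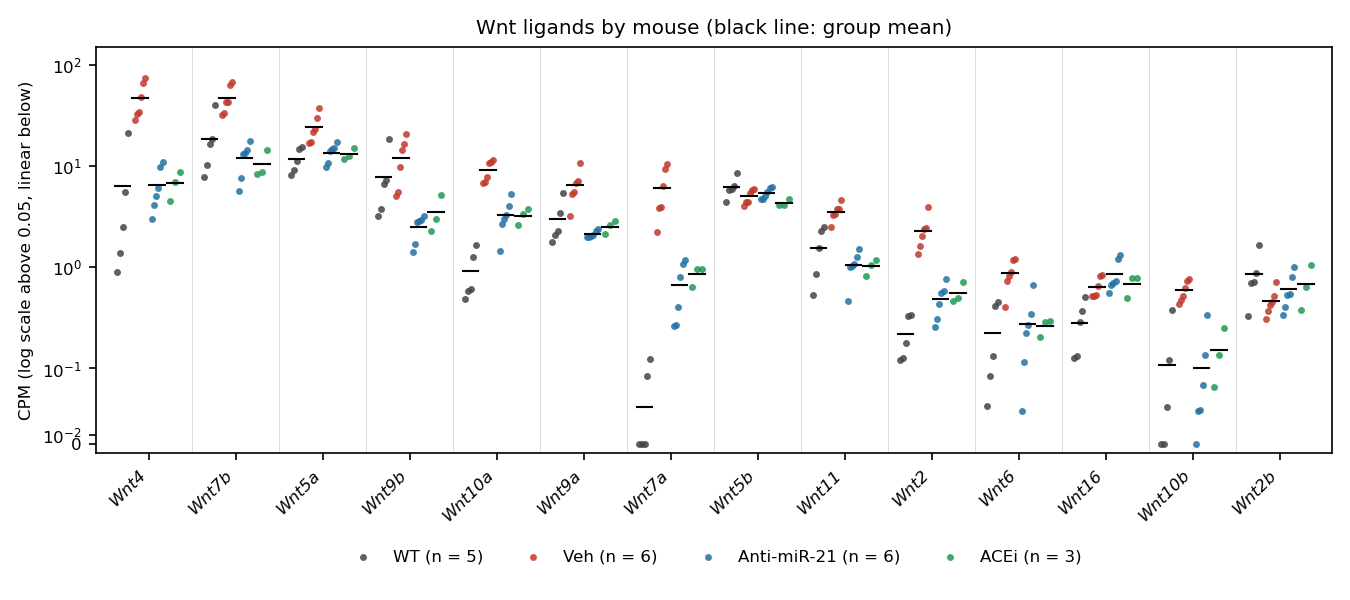
CPM of the 14 tested ligands in each mouse (points; the black line is the group mean), on an axis that is logarithmic above 0.05 CPM and linear below. Wnt4 in Veh (28.8 to 73.5) lies above all other groups, and Wnt7a is at 0 to 0.123 in WT.

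Levels of different genes were compared per length, as FPKM, which the authors scaled by library totals. Summed over the ligands, FPKM was 14.1 ± 7.81 (SD, n = 5) in WT, 59.5 ± 18.5 (SD, n = 6) in Veh, 14.8 ± 4.35 (SD, n = 6) in Anti-miR-21 and 14.6 ± 3.36 (SD, n = 3) in ACEi. The lowest Veh mouse (38.1) was above the highest mouse of the other groups (27.1, WT mouse A17). FPKM carries the shift of all genes that library totals leave in. Summed as TMM-scaled CPM, without correction for length, the ligands stood at 58.2 ± 32.7 (SD) in WT, 166.0 ± 52.5 (SD) in Veh, 49.6 ± 12.3 (SD) in Anti-miR-21 and 48.2 ± 9.61 (SD) in ACEi. On that scale both treated groups had means below WT, but the WT mean includes A17 at 112.7. The other WT mice had 31.9 to 62.9 CPM, overlapping Anti-miR-21 (35.3 to 64.2) and ACEi (40.6 to 59.0). The lowest Veh mouse (A16, 117.1) was close to A17. Wnt7b (mean of 17.4 FPKM) and Wnt4 (15.3 FPKM) made up most of the ligand RNA in Veh, followed by Wnt10a (5.63 FPKM) and Wnt5a (5.52 FPKM). Together Wnt7b and Wnt4 accounted for 54.4% ± 2.94 (SD) of ligand FPKM in Veh, with a range of 52.0 to 58.6%, against 38.1% ± 10.6 (SD) in WT, with a range of 28.1 to 54.9% that overlaps that of Veh. The part from Wnt4 alone was 7.08% ± 6.04 (SD) in WT and 25.1% ± 2.89 (SD) in Veh. In the FPKM table the entries of Wnt7b, Wnt5b and Sfrp2 are marked as confounded, a mark that the sources used here do not explain.

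**Figure D3:**
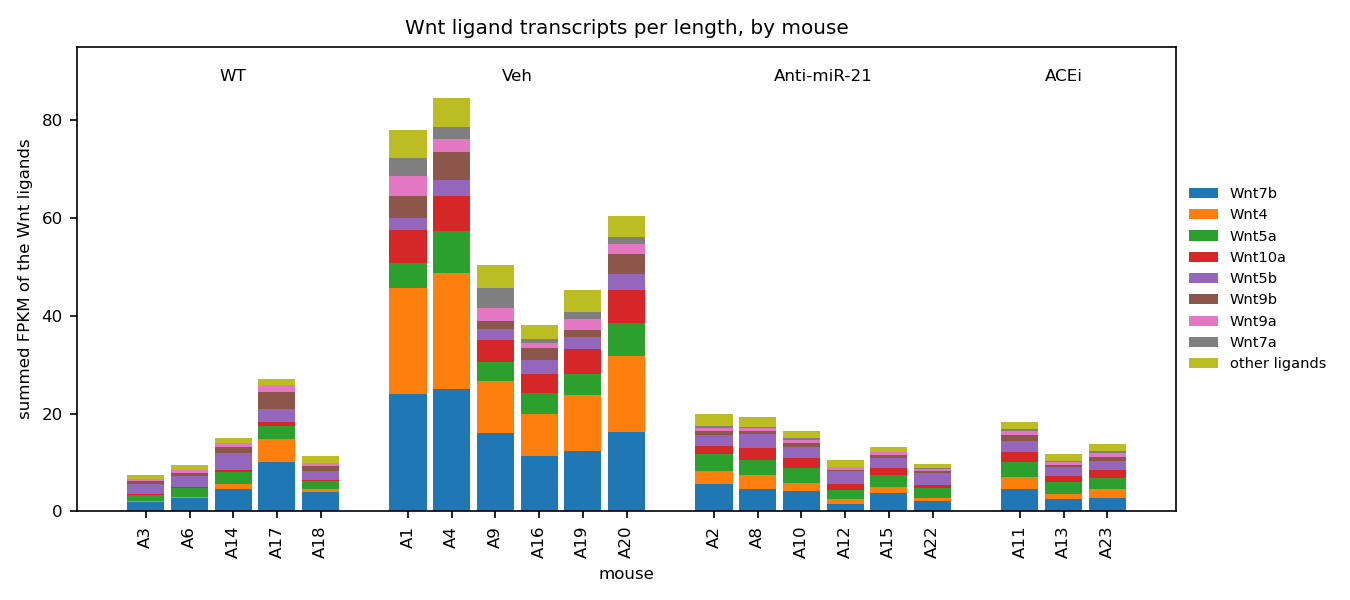
Summed FPKM of the Wnt ligands in each of the 20 mice, stacked by ligand. The Veh bars reach 38.1 to 84.5, and the tallest bar outside Veh is WT mouse A17 at 27.1.

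The receptors split. Of 11 tested, 6 were higher in Veh (Fzd10 among them), 3 were lower and 2 were not called. Fzd2 and Fzd1, closely related receptors that act with Lrp6, had the largest increases after the scarce Fzd10.

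Fzd1 (ENSMUSG00000044674, chr5:4753839-4758035, minus strand) was the most abundant receptor per length, at 13.8 FPKM in WT and 50.3 in Veh, values that hold the shift of all genes. Its CPM was 59.5, 62.4, 68.2, 83.2 and 91.6 in the WT mice and 148 to 197 in the Veh mice, with a median of 181. The groups did not overlap and the log2 fold change was 1.27 ± 0.12 (SE, adjusted p = 1.2e-08). Fzd2 (ENSMUSG00000050288, chr11:102604396-102608058, plus strand) was at 3.70, 4.11, 6.32, 6.87 and 7.18 CPM in WT and at 14.9 to 23.4 CPM in Veh, with a median of 20.4. It did not overlap either, and its log2 fold change was 1.82 ± 0.17 (SE, adjusted p = 5e-09).

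Fzd7, another receptor of the same group, was higher by 0.59 (adjusted p = 3.2e-06), Fzd3 by 0.90 (adjusted p = 0.0017) and Fzd6 by 0.40 (adjusted p = 0.0076). The call of Fzd6 was lost without the mice with high urothelium markers (0.33, adjusted p = 0.073) and without those with high adipocyte markers (0.29, adjusted p = 0.12). Fzd3 and Fzd6 are the Frizzleds of planar cell polarity. Fzd10, which passed the filter through 4 Veh mice alone, had the largest log2 fold change of the receptors, 2.04 ± 0.73 (SE), but at the lowest level: 0, 0.041, 0.127, 0.168 and 0.245 CPM in WT and 0.14 to 0.983 in Veh, so that the groups overlapped.

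Lrp6 (ENSMUSG00000030201, chr6:134446476-134566965, minus strand), the co-receptor of beta-catenin signalling, ran the other way. The WT mice had 94.2, 102, 113, 118 and 120 CPM and the Veh mice 62.6 to 74.7 CPM, with a median of 73.3. All 6 Veh mice were below all 5 WT mice, and the log2 fold change was -0.62 ± 0.07 (SE, adjusted p = 5.1e-08). Fzd5 was lower by -0.46 (adjusted p = 5.4e-05) and Fzd4, the receptor of blood vessel growth, by -0.30 (adjusted p = 0.026). The call of Fzd4 was lost without any 1 of 4 mice and without the mice with high urothelium (-0.19, adjusted p = 0.19) or adipocyte markers (-0.23, adjusted p = 0.12). These decreases are relative to other genes. With library totals alone the log2 fold change of Lrp6 was -0.03 (adjusted p = 0.65), and those of Fzd5 and Fzd4 turned to 0.13 and 0.28. By limma on log2(FPKM + 1), which carries the same shift of all genes, all 3 turned (0.016 for Lrp6, 0.10 for Fzd5 and 0.22 for Fzd4). Lrp5 (0.08, interval -0.13 to 0.29) and Fzd8 (0.02, interval -0.12 to 0.15) were not called.

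The secreted inhibitors were mostly higher as well. Of 8 tested, 6 were higher in Veh, 1 was lower and 1 was not called. Dkk3, Sfrp4 and Sfrp5 had the largest increases, and Wif1 was the inhibitor that was lower.

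Dkk3 (ENSMUSG00000030772, chr7:112116017-112159057, minus strand), a divergent Dickkopf, had 12.04, 20.2, 21.3, 22.4 and 30.02 CPM in the WT mice and 61.4 to 97.0 CPM in the Veh mice, with a median of 82.2. The groups did not overlap and the log2 fold change was 1.93 ± 0.19 (SE, adjusted p = 1.6e-08), or 3.82-fold. Dkk2, which binds Lrp5 and Lrp6, was higher by 0.88 (adjusted p = 1.4e-06), also without overlap.

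Sfrp4 (ENSMUSG00000021319, chr13:19623104-19632994, plus strand), a soluble Frizzled-like protein that binds Wnts, had 1.20, 1.27, 1.80, 2.62 and 2.70 CPM in WT and 3.19 to 10.5 CPM in Veh. Veh mice A1 (8.90) and A4 (10.5), those with the highest urothelium markers, were the highest. The log2 fold change was 1.68 ± 0.29 (SE, adjusted p = 3e-05). Sfrp5 was higher in 5 of 6 Veh mice (4.12 to 7.76 CPM) than in any WT mouse (1.51 to 3.25 CPM), while Veh mouse A16 had 1.02. Its log2 fold change of 1.30 (adjusted p = 0.0072) fell to 0.80 (adjusted p = 0.15) without the mice with high adipocyte markers and to 1.06 (adjusted p = 0.065) without those with high urothelium markers. Sfrp5 is made by adipocytes, and the part of fat in the result was not tested.

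Sfrp1, the most abundant inhibitor per length (25.3 FPKM in WT, 44.3 in Veh), differed little: 111, 122, 138, 142 and 155 CPM in WT and 130 to 187 CPM in Veh (log2 fold change 0.21, adjusted p = 0.044). The call was lost without any 1 of 6 mice, and within flow cell FCH5V5HBBXX the value was 0.06 (adjusted p = 0.62). Sfrp2 was higher by 0.36 (adjusted p = 0.0093), and 0.30 (adjusted p = 0.074) without the mice with high urothelium markers. Frzb was not called (0.24, adjusted p = 0.11), although it was when Veh mouse A1 (0.31, adjusted p = 0.041) or WT mouse A14 (0.40, adjusted p = 0.0058) was left out. Wif1, which captures Wnts outside the cell, was at 1.23, 1.88, 1.97, 2.26 and 2.90 CPM in WT and at 0.56 to 1.85 in Veh, and was lower by -0.90 ± 0.29 (SE, adjusted p = 0.0083), or by -0.31 (adjusted p = 0.32) with library totals alone.

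**Figure D4:**
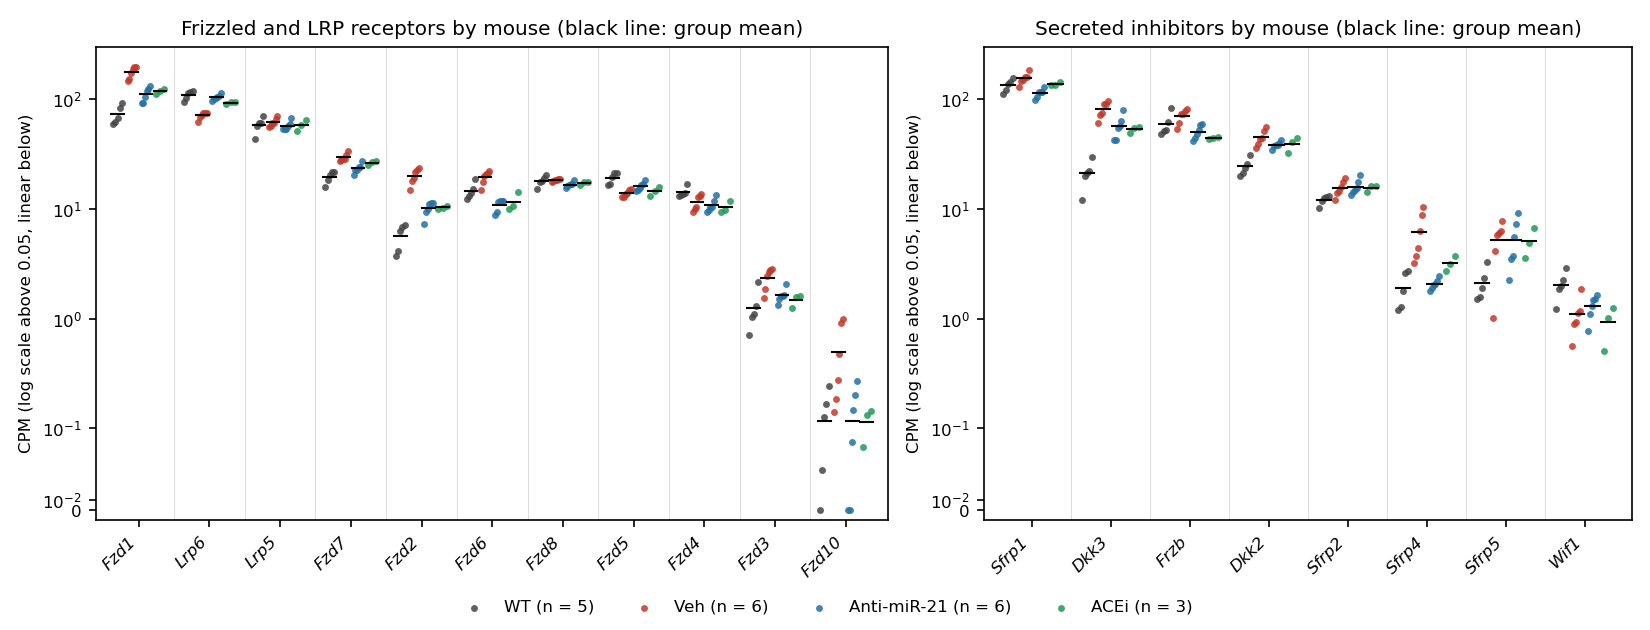
CPM of the 11 tested receptors (left) and 8 tested secreted inhibitors (right) in each mouse (points; the black line is the group mean), on an axis that is logarithmic above 0.05 CPM and linear below. Fzd1 in Veh (148 to 197) is above every other group, and Lrp6 in Veh (62.6 to 74.7) is below every other group in CPM, though on FPKM its mean is 12.17 in Veh and 12.04 in WT.

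Axin2 (ENSMUSG00000000142, chr11:108920349-108950783, plus strand), the feedback target, was higher in every Veh mouse than in any WT mouse. It had 0.587, 0.891, 2.46, 2.79 and 3.27 CPM in WT and 8.55 to 18.2 CPM in Veh, with a median of 11.8. The log2 fold change was 2.71 ± 0.38 (SE, adjusted p = 1.7e-06), or 6.54-fold. Within flow cell FCH5V5HBBXX alone it was 2.71 as well. An antisense gene, Gm11670, overlaps Axin2 exons.

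The library names begin with 1 of 2 codes, read here as flow cells, and groups were spread over both unevenly. Within flow cell FCH5V5HBBXX (3 WT, 4 Veh and 5 Anti-miR-21 mice), 23 members were higher and 4 lower in Veh against WT. There Wnt7a was higher by 6.67, Wnt4 by 4.32, Wnt7b by 2.08, Fzd1 by 1.15, and Lrp6 lower by -0.73. WT mouse A17 was on the other flow cell. ACEi had 1 mouse on this flow cell and 2 on the other, FCH5Y3GBBXX, which also held 2 WT mice (A17 among them), 2 Veh mice and 1 Anti-miR-21 mouse. On FCH5Y3GBBXX the names of both WT libraries end in L1 and those of both ACEi libraries in L2. What these endings stand for cannot be told apart there from ACEi against WT. Fitted alone, these 7 libraries gave 13 members higher and 1 lower in Veh against WT, beside 4679 higher and 4291 lower of 17903 genes. Wnt7a, Wnt2, Wnt10a, Fzd1, Fzd2, Dkk3 and Axin2 (2.72, adjusted p = 0.017) were called there, while Wnt4 (1.70, adjusted p = 0.12) and Wnt7b (0.43, adjusted p = 0.41) were not. Between ACEi and Veh 2 members were called, Wnt11 (-1.53, adjusted p = 0.043) and Frzb (-0.75, adjusted p = 0.03), beside 909 higher and 407 lower of all genes, and all 18 members called over all mice had the same direction. With flow cell as a term in the fit of all mice, 16 of those 18 calls remained, Dkk3 (adjusted p = 0.054) and Wnt6 (adjusted p = 0.051) lost theirs, and Fzd3 gained one (-0.74, adjusted p = 0.047).

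Other genes of the pathway were described from lists, whose counts stand beside the 39.0% of all genes that were higher and the 34.0% that were lower. Of 12 reported beta-catenin targets, 10 were higher in Veh and 2 were lower (median 2.32). Mmp7, a matrix protease, was at 0 to 0.0422 CPM in WT and at 5.62 to 17.9 CPM in Veh, and Cd44, an adhesion receptor, was higher by 5.16 (adjusted p = 7.5e-13). Sp5, a transcription factor that beta-catenin induces in many tissues, was lower in every Veh mouse (4.73 to 8.66 CPM) than in any WT mouse (21.8 to 35.0 CPM), with a log2 fold change of -2.05 (adjusted p = 4.2e-10). Ccnd1, the cell cycle gene cyclin D1, was lower by -0.41 (adjusted p = 0.0051) and stood at 0.17 with library totals alone. On that scale 10 of the targets were higher and 1, Sp5, was lower (-1.46).

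Of 12 TCF/LEF factors and cofactors, 9 were higher, 0 lower and 3 not called (median 0.65). Tcf7 was higher by 2.94 (adjusted p = 1.2e-09), Pygo1 by 2.12 (adjusted p = 1.8e-06) and Lef1 by 1.42 (adjusted p = 1.1e-05). Of 19 relay and destruction complex genes, 11 were higher, 4 lower and 4 not called (median 0.17). The feedback inhibitor Nkd2 led these, at 0.629 to 1.48 CPM in WT and 29.8 to 63.4 CPM in Veh (log2 fold change 5.69, adjusted p = 5.1e-12), and its relative Nkd1 was higher by 2.36 (adjusted p = 1.4e-09). Ctnnb1, which encodes beta-catenin itself, was not called (0.16, adjusted p = 0.087). Scaled by library totals alone, 11 of the 12 TCF/LEF genes and 18 of the 19 relay genes were higher and 0 were lower.

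Of 8 processing genes and other extracellular modulators tested, 3 were higher, 3 lower and 2 not called (median 0.012). Notum, the enzyme that strips the lipid from Wnts, was lower in every Veh mouse (3.89 to 6.80 CPM) than in any WT mouse (30.02 to 50.8 CPM), by -2.93 on the log2 scale (adjusted p = 1.7e-11). Apcdd1, a membrane inhibitor, was higher by 2.54 (adjusted p = 8.3e-06) and Tpbg by 3.03 (adjusted p = 7.2e-11). Wls, the carrier that brings Wnts to the cell surface, was not called (0.03, adjusted p = 0.65). Of 7 co-receptors, 6 were higher and 1 lower (median 0.39), with Ptk7 at 2.43 (adjusted p = 1.4e-09) and Lrp4 at -0.67 (adjusted p = 3.6e-06). Of 7 R-spondins and their receptors tested, 3 were higher, 1 lower and 3 not called (median 0.29): Rspo3 was higher by 1.24 (adjusted p = 0.0052) and the R-spondin receptor Lgr4 lower by -0.98 (adjusted p = 2.3e-07). Of 10 planar cell polarity genes, 5 were higher, 2 lower and 3 not called (median 0.44), with Prickle2 higher by 1.39 (adjusted p = 1.3e-08). The counts of the modulators, the R-spondin genes and the polarity genes were close to the shares over all genes. With library totals alone the counts were 5 higher and 1 lower for the extracellular modulators (Notum, -2.34), 6 and 0 for the co-receptors, 4 and 1 for the R-spondin genes (Lgr4, -0.40) and 10 and 0 for the polarity genes.

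The second question was what lademirsen changed. Against Veh, 22 of the 34 members were lower, 2 were higher and 10 were not called in Anti-miR-21 kidneys. Among all genes, 30.5% were lower and 28.8% higher, and the median log2 fold change was -0.60 over the members and -0.04 over all genes. Without Wnt10b and Fzd10, 20 of 32 were lower and 2 higher. In 16 members all Anti-miR-21 mice lay below all Veh mice, as they did for 17.9% of all genes. With library totals alone the median of all genes moved to -0.38 and the split was 27 lower and 1 higher. Without the mice with high urothelium markers 21 members were lower and 1 higher, beside 4573 lower and 4924 higher of 17377 genes. Without those with high adipocyte markers 18 members were lower and 1 higher, beside 3677 lower and 4330 higher of 17263 genes.

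All 11 called ligands were lower, Wnt10b among them. Wnt7a fell to 0.262 to 1.18 CPM (median 0.605), a log2 fold change of -3.16 ± 0.43 (SE, adjusted p = 3.8e-06). Wnt4 fell to 3.02 to 11.0 CPM (median 5.57), by -2.86 ± 0.53 (SE, adjusted p = 0.00012). No Anti-miR-21 mouse reached the Veh range of either gene, nor that of Wnt7b (5.70 to 17.7 CPM, log2 fold change -1.97, adjusted p = 4.9e-05), Wnt2 (0.258 to 0.771 CPM, -2.23, adjusted p = 3.7e-06) or Wnt10a (1.43 to 5.26 CPM, -1.47, adjusted p = 0.00011). Wnt9b, Wnt9a, Wnt11, Wnt10b, Wnt6 and Wnt5a were lower by between -2.45 and -0.84. The call of Wnt6 was lost without the mice with high adipocyte markers (-1.25, adjusted p = 0.12). Wnt16 was not called and sat slightly above Veh (0.552 to 1.31 CPM, log2 fold change 0.42, adjusted p = 0.23).

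Of the receptors, 6 were lower, Fzd10 among them, and 2 higher. Fzd1 came to 91.8 to 133 CPM (log2 fold change -0.66, adjusted p = 5.6e-05), Fzd2 to 7.33 to 11.4 CPM (-0.97, adjusted p = 1.5e-05) and Fzd6 to 8.89 to 11.9 CPM (-0.83, adjusted p = 8.3e-06). None of these ranges overlapped Veh. Lrp6 rose to 95.7 to 114 CPM, above every Veh mouse, by 0.55 ± 0.06 (SE, adjusted p = 5.2e-07), and by 0.21 (adjusted p = 0.0073) with library totals alone. Fzd5 was higher by 0.21 (adjusted p = 0.027), a call that was lost without A12 or A15 and that turned to -0.13 with library totals alone. Fzd3 was lower by -0.53 (adjusted p = 0.038), a call lost without any 1 of 9 mice.

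Of the inhibitors, 4 were lower. Sfrp4 came to 1.78 to 2.45 CPM, below all Veh mice (log2 fold change -1.57, adjusted p = 5.2e-05). Sfrp1 came to 98.4 to 128 CPM, just below the lowest Veh mouse at 130 (-0.45, adjusted p = 0.00018). Frzb (41.3 to 59.5 CPM, -0.47, adjusted p = 0.0038) and Dkk3 (42.2 to 79.1 CPM, -0.51, adjusted p = 0.015) overlapped Veh, and the call of Dkk3 was lost without the mice with high adipocyte markers (-0.48, adjusted p = 0.07). Sfrp5 (2.25 to 9.21 CPM, log2 fold change 0.02, interval -0.74 to 0.77), Dkk2, Sfrp2 and Wif1 were not called. Axin2 came to 2.06 to 6.26 CPM, below all Veh mice, with a log2 fold change of -1.74 ± 0.33 (SE, adjusted p = 0.00014).

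The third question was what ramipril changed. Against Veh, 17 members were lower, 1 was higher and 16 were not called in the 3 ACEi kidneys. Among all genes 19.1% were lower and 21.0% higher, and the median log2 fold change was -0.66 over the members and -0.05 over all genes. Without Wnt10b and Fzd10, 17 of 32 were lower and 1 higher, with a median of -0.63. In 16 members, Wnt10b among them, all ACEi mice were below all Veh mice, against 18.8% of all genes. With library totals alone the median of all genes moved to -0.32 and 27 members were lower and 0 higher. Without the mice with high urothelium markers 16 members were lower and 1 higher, beside 2292 lower and 3567 higher of 17377 genes. Without those with high adipocyte markers 12 members were lower and 1 higher, beside 1569 lower and 3045 higher of 17263 genes.

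The ligands were again the role with most calls, 10 of 14, all lower. The 3 ACEi mice had 0.644, 0.951 and 0.954 CPM of Wnt7a (log2 fold change -2.82, adjusted p = 0.00056) and 4.51, 6.92 and 8.79 CPM of Wnt4 (-2.81, adjusted p = 0.0036). They had 8.34, 8.72 and 14.3 CPM of Wnt7b (-2.17, adjusted p = 0.00077), 0.459, 0.501 and 0.716 CPM of Wnt2 (-2.03, adjusted p = 0.00044) and 2.61, 3.34 and 3.74 CPM of Wnt10a (-1.49, adjusted p = 0.0021). None of these 15 values reached the Veh range of its gene. Wnt10b was not called (-1.96, adjusted p = 0.053), and the call of Wnt6 (-1.73, adjusted p = 0.033) was lost without any 1 of 5 mice. That of Wnt9b (-1.78, adjusted p = 0.012) was lost without A13 or A23. Without the mice with high adipocyte markers, Wnt9b (-1.45, adjusted p = 0.058), Wnt9a (-0.86, adjusted p = 0.066) and Wnt6 (-1.40, adjusted p = 0.17) were not called.

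Fzd1 (113, 118 and 125 CPM), Fzd2 (9.98, 10.3 and 10.7 CPM) and Fzd6 (10.1, 10.6 and 14.3 CPM) were lower, by -0.57 (adjusted p = 0.0038), -0.95 (adjusted p = 0.00061) and -0.74 (adjusted p = 0.00078). Lrp6, at 89.8, 94.3 and 94.6 CPM, was higher by 0.38 (adjusted p = 0.00065), and by 0.11 (adjusted p = 0.24) with library totals alone. All 4 genes were separated from Veh in every mouse. Frzb (43.1, 44.8 and 45.7 CPM, -0.66, adjusted p = 0.0032), Sfrp4 (2.72, 3.15 and 3.75 CPM, -0.94, adjusted p = 0.03) and Dkk3 (49.1, 55.2 and 55.4 CPM, -0.61, adjusted p = 0.031) were the inhibitors that were lower. The call of Dkk3 was lost without any 1 of 6 mice and that of Sfrp4 without any 1 of 4, and Sfrp4 stood at -0.42 without the mice with high urothelium markers (adjusted p = 0.22). Axin2 had 3.19, 4.80 and 6.07 CPM and a log2 fold change of -1.49 ± 0.42 (SE, adjusted p = 0.008), which was -1.27 (adjusted p = 0.059) without A13.

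Both treatments were compared with the same 6 Veh mice, so likeness between those comparisons is partly shared by construction, and the treatments were also compared directly. Between Anti-miR-21 and ACEi, 0 of 34 members were called by edgeR, and 0 by DESeq2; 2 had an unadjusted p under 0.05. Over all genes 0.584% were called. The 2 members were Sfrp1, lower under lademirsen by -0.28 (interval -0.50 to -0.06, adjusted p = 0.23), and Lrp6, higher by 0.17 (interval 0.01 to 0.33, adjusted p = 0.33). With 3 ACEi mice the intervals were wide for the ligands: -0.05 (-1.40 to 1.30) for Wnt4, -0.34 (-1.47 to 0.79) for Wnt7a and 0.20 (-0.67 to 1.07) for Wnt7b. Differences of more than 2-fold between the treatments are within those intervals for Wnt4, Wnt7a and Wnt7b.

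The last question was what stayed different from wild type. Of the 24 members higher in Veh, lademirsen-treated kidneys still had 12 above WT, 10 not called and 2 below WT. Under ramipril, 12 were still above WT and 12 were not called. Wnt10b and Fzd10 were among those not called under both drugs. Of the 5 members lower in Veh, 2 remained below WT under lademirsen and 4 under ramipril. Among all genes, 23.9% were higher and 19.8% lower in Anti-miR-21 than in WT, and 25.2% and 22.5% in ACEi. These shares are over all genes tested. The shares among only the genes that were higher or lower in Veh were not computed. Over the 34 members the calls against WT were 12 higher and 5 lower for Anti-miR-21, and 12 higher and 6 lower for ACEi. With library totals alone, which moved the median of all genes to 0.26 and 0.31, they were 13 and 1 for Anti-miR-21, and 15 and 0 for ACEi. Without ACEi mouse A23, 9 members were called against WT.

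Wnt7a and Wnt10a stayed well above WT. The count ratio of Wnt7a to WT was 16.3 (6.77 to 51.0) in Anti-miR-21 and 20.3 (8.32 to 64.3) in ACEi, and Wnt10a was 3.52-fold (adjusted p = 0.00018) and 3.46-fold (adjusted p = 0.00055) above WT. Dkk3 was 2.67-fold and 2.51-fold above WT (adjusted p = 6.2e-06 and 5.6e-05). Fzd1, Fzd2, Fzd7, Dkk2, Sfrp2, Sfrp5, Wnt2, Wnt16 and Axin2 were also above WT under both drugs. Under ramipril the calls of Sfrp2 and Sfrp5 were each lost without any 1 of 5 mice, that of Wnt16 without A11 or A23 and that of Wnt2 without A23. Under lademirsen that of Wnt2 was lost without A14, A17 or A8 and that of Fzd7 without A17. Axin2 was above WT by 0.97 under lademirsen (adjusted p = 0.04) and by 1.22 under ramipril (adjusted p = 0.023). Each of those calls was lost when certain single mice were left out, A3, A18, A2, A8 or A10 for lademirsen and A3, A11 or A23 for ramipril.

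Wnt4 and Wnt7b were not called against WT under either drug. Wnt4 stood at 0.04 (adjusted p = 0.96) and 0.09 (adjusted p = 0.93), but without WT mouse A17 it was above WT by 1.33 (adjusted p = 0.027) under lademirsen and by 1.38 (adjusted p = 0.037) under ramipril. Wnt2 under lademirsen went from 1.14 (adjusted p = 0.021) to 0.99 (adjusted p = 0.056) without A17. Below WT under lademirsen were Wnt9b, Fzd6, Sfrp1, Fzd4 and Fzd5. Wnt9b stood at -1.66 (adjusted p = 0.0046), and at -1.06 (adjusted p = 0.032) without A17. Fzd6 stood at -0.43 (adjusted p = 0.011), Sfrp1 at -0.24 (adjusted p = 0.041), Fzd4 at -0.38 and Fzd5 at -0.25. With library totals alone the calls of Fzd6, Sfrp1, Fzd4 and Fzd5 were lost, and the log2 fold change of Sfrp1 was 0.0059. The call of Sfrp1 was lost without any 1 of 7 mice and that of Fzd5 without any 1 of 4. Wif1 was below WT under ramipril (-1.14, adjusted p = 0.014), a call lost without A23. Under lademirsen Wif1 was not called (-0.65, adjusted p = 0.076), and the direct comparison of the treatments did not call it. Also below WT under ramipril were Wnt5b (-0.52), Fzd4 (-0.46), Frzb (-0.42), Fzd5 (-0.40) and Lrp6 (-0.24). The calls of Frzb, Lrp6 and Wnt5b were lost without any 1 of 5, 4 and 3 mice, and that of Fzd4 without A13 or A23. With library totals alone the calls of Wif1 and of these 5 genes were lost.

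**Figure D5:**
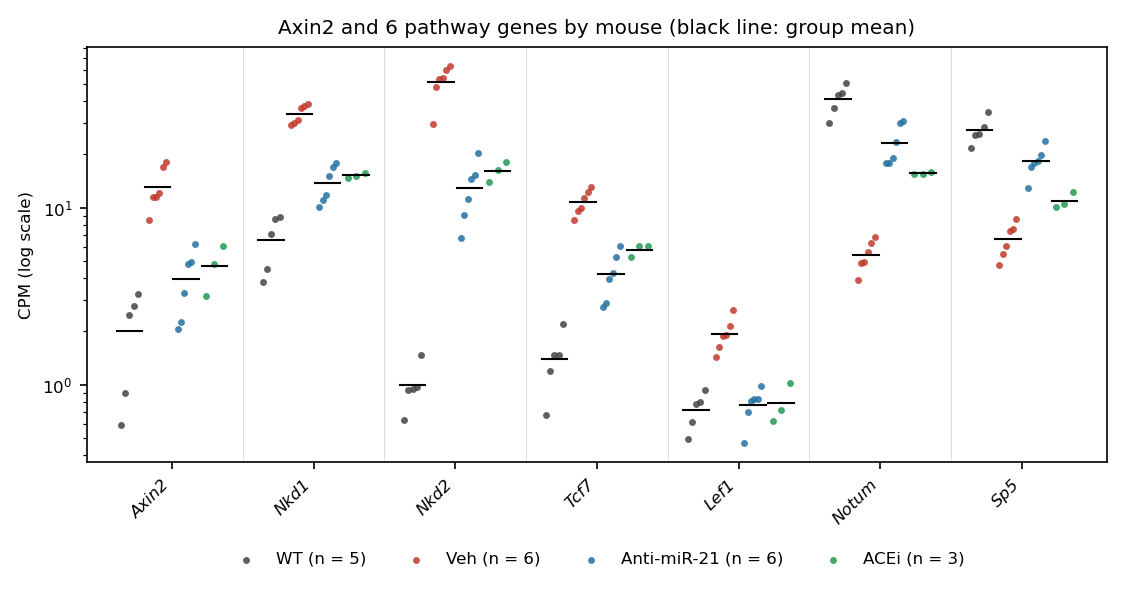
CPM (log axis) of Axin2 and 6 other pathway genes in each mouse (points; the black line is the group mean); the 6 genes were picked after their values were seen. Notum and Sp5 are lowest in Veh, at 3.89 to 6.80 and 4.73 to 8.66 CPM, and the other 5 genes are highest there.

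The pathway lists changed in both treated groups as follows. Of the 12 beta-catenin targets, 9 were lower and 1 higher under lademirsen and 6 lower and 1 higher under ramipril, against Veh, where 30.5% and 19.1% of all genes were lower and 28.8% and 21.0% higher. The 1 that was higher was Sp5 in both cases (1.46, adjusted p = 1.6e-07, and 0.71, adjusted p = 0.004). Of the 12 TCF/LEF factors and cofactors, 9 and 7 were lower and 0 were higher. Lef1 was lower by -1.33 (adjusted p = 1.9e-05) and -1.30 (adjusted p = 0.00078) and was not called against WT under either drug. Tcf7 was lower by -1.36 (adjusted p = 1.2e-05) and -0.90 (adjusted p = 0.0085). Of the 8 extracellular modulators tested, 4 were lower and 2 higher under lademirsen, and 3 lower and 2 higher under ramipril. With library totals alone the counts were 5 lower and 2 higher, and 6 lower and 1 higher. Apcdd1 and Draxin had the largest decreases under both drugs, and Notum and Sost were higher. Notum was higher by 2.11 (adjusted p = 2.9e-08) and 1.54 (adjusted p = 1.5e-05). It was at 17.8 to 30.9 CPM in Anti-miR-21 and 15.5 to 15.9 CPM in ACEi, and was still below WT.

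Nkd2, at 6.71 to 20.5 CPM in Anti-miR-21 and 13.96 to 18.1 CPM in ACEi, was lower than in Veh by -1.99 (adjusted p = 2.5e-07) and -1.67 (adjusted p = 0.0001). It remained above WT by 3.70 (adjusted p = 9.2e-09) and 4.02 (adjusted p = 6.8e-09). Of the 19 relay genes, 9 were lower and 4 higher under lademirsen, and 6 lower and 1 higher under ramipril. Of the 10 planar cell polarity genes, 4 were lower and 0 higher, and 4 lower and 1 higher. Of the 7 co-receptors, 4 and 3 were lower and Lrp4 was higher under both drugs (0.25 and 0.32, but -0.08 and 0.05 with library totals alone). Of the 7 R-spondin genes tested, 1 was lower and 1 higher under lademirsen, and 2 lower and 1 higher under ramipril. With library totals alone 4 were lower and 1 higher under each drug. Rnf43 was lower under both drugs and Lgr6 under ramipril. Lgr4 was the R-spondin receptor that was higher under both (0.88, adjusted p = 1.7e-06, and 0.79, adjusted p = 0.00014). Scaled by library totals alone, 17 and 11 of the relay genes, 8 and 7 of the polarity genes and 5 and 5 of the co-receptors were lower under lademirsen and ramipril, and 0 of them were higher. In the direct comparison of the treatments 0 genes of any of these 7 lists were called.

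Markers of several other cells also differed between groups. Fibroblast markers summed to 346 to 702 CPM in Anti-miR-21 and 685 to 786 in ACEi, between the WT and Veh ranges, and 5 of 5 were higher in Veh than in WT. Macrophage markers summed to 146 to 163 CPM in WT, 946 to 1200 in Veh, 400 to 624 in Anti-miR-21 and 517 to 617 in ACEi. Tubule injury markers summed to 561 to 647, 10400 to 15700, 3600 to 8830 and 6890 to 7370 CPM in the same order. Proximal tubule markers came to 6390 to 10700 CPM in Anti-miR-21 and 6650 to 8710 in ACEi. The part of these cell types in the Wnt results was not tested. For urothelium and fat, the values without the mice concerned are given above for Veh against WT, Anti-miR-21 against Veh and ACEi against Veh. Without the mice with high urothelium markers, 23, 22 and 17 of 33 members were called, beside 12132, 9497 and 5859 of 17377 genes. Without those with high adipocyte markers, 22, 19 and 13 of 33 members were called, beside 11694, 8007 and 4614 of 17263 genes.

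Promoter windows of 28 members, from 250 bases before to 50 bases after each RefSeq start (GRCm38.p6), were searched on both strands for the TCF/LEF core CTTTG followed by AA, AT, TA or TT. A match was found in 5 of 31 windows (16.1%), and in 5544 of 32851 windows of all genes (16.9%). Dkk1, Fzd7, Wnt11, Wnt3 and Wnt5b had a match. The windows of Axin2, Wnt4 and Wnt7a had none, which says only that these letters are not in those windows.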

How the data were processed

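Per the study's methods, paired-end reads of total kidney RNA were aligned to mouse genome build 38 with the OmicSoft aligner. The authors deposited estimated counts per gene, of which 29.1% of the positive values are not whole, and FPKM per gene, scaled by library totals. The counting's strand setting is not given in the sources used here. Counts were rounded to whole numbers and fitted for all 20 mice with edgeR 4.0.16 in R 4.3.3 (TMM, filterByExpr with a minimum count of 10, glmQLFit with 1 coefficient per group, no covariate, Benjamini-Hochberg over 17622 genes, threshold 0.05). FPKM served for levels between genes and for limma 3.58.1 on log2(FPKM + 1), and DESeq2 1.42.0 was an alternative. On simulated counts for Veh against WT (17622 genes), 82% of 100 genes changed by a log2 fold change of 1 and 88% of 100 changed by 2 were recovered, and 4.49% of the calls were on unchanged genes. For Anti-miR-21 against Veh these were 80%, 90% and 7.61%, above the 5% that the threshold aims at, and for ACEi against Veh 75%, 92% and 4.02%. Few genes were changed in each simulation, as many up as down, and all other genes had the same mean in every group. Far more genes differed in the real comparisons, so the simulation does not show recovery or false calls under the shift of all genes. Genes without a symbol took 0.0919% of counts. The FPKM table holds 3 columns of no mouse studied here, which were not used. Each library came from 1 mouse, and CPM intervals from counts cover counting error only.

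Members and lists were chosen with earlier results of these data known. Values by mouse are given for the 4 members of each role with the largest called difference between Veh and WT, members called against Veh whose mean then lay closer to Veh or beyond WT, and the most abundant of each role. The seed search and the leaving out of mice by urothelium or adipocyte markers and the fit of flow cell FCH5Y3GBBXX alone were added after seeing the data. Gene coordinates are from GENCODE (GRCm38). Beside the fibroblast list, the marker lists gave these counts of called genes in Veh against WT: thick ascending limb 1 higher and 3 lower of 4, distal tubule 1 and 3 of 4, collecting duct 0 and 4 of 5, podocyte 3 and 0 of 4, endothelium 2 and 1 of 5, smooth muscle and mesangium 4 and 0 of 5, macrophage 6 and 0 of 6, T cell 5 and 0 of 5, B and plasma cell 3 and 0 of 5, adipocyte 5 and 0 of 6, adrenal gland 2 and 0 of 3, urothelium 4 and 0 of 5, tubule injury 5 and 0 of 5, and proximal tubule 0 and 5 of 5.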

Additional observations from a re-analysis of the deposited data

Results flagged for a closer look

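In WT mouse A17, Wnt4 was at 21.2 CPM, while the other 4 WT mice were at 0.902 to 5.58. The gap to the next mouse was 0.77 of the whole range of the group. In the same mouse Wnt9b was at 18.6 CPM, against 3.20 to 7.22 in the other 4, a gap of 0.738 of the range. Dixon's limit at 95% was passed in these 2 of 66 groups checked for the named members, and chance alone passes it in about 1 of 20 groups. A17 also had the highest value of the WT mice in 7 of the 14 tested ligands.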

How the results depend on the processing

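Over 71 called log2 fold changes of members and all alternatives, 1611 of 1760 values kept their direction and their call, 134 lost the call and 15 changed sign. Those that changed sign, in the order library totals alone, limma on log2(FPKM + 1), on log2(FPKM + 0.1), and on genes with a mean FPKM of at least 0.5, were Fzd4 in Veh against WT (0.28, 0.22, 0.28 and 0.22), Fzd5 in Veh against WT (0.13, 0.10, 0.14 and 0.10), Fzd5 in Anti-miR-21 against Veh (-0.13, -0.10, -0.13 and -0.10) and, under the 3 limma settings, Lrp6 in Veh against WT (0.016, 0.017 and 0.016). Neither library totals nor FPKM correct for the shift of all genes.

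The number of called members between ACEi and Veh was 18, and 29 or 28 by limma on log2(FPKM + 1) or log2(FPKM + 0.1). Between Anti-miR-21 and WT it was 17, and 11 by limma on log2(FPKM + 1) and 10 with the filter on mean FPKM. The cause was not tested. Leaving out 1 mouse at a time gave 27 to 29 called members for Veh against WT, 22 to 24 for Anti-miR-21 against Veh, 13 to 20 for ACEi against Veh, 0 to 0 for Anti-miR-21 against ACEi, 14 to 17 for Anti-miR-21 against WT and 9 to 18 for ACEi against WT, with the 9 reached without A23. Of 31 differences that were not called in the 3 main comparisons, 21 were called under at least 1 alternative and 15 changed sign under at least 1. Called with a changed sign were 2 of them, Sfrp2 in Anti-miR-21 against Veh (-0.31, library totals alone) and Fzd5 in ACEi against Veh (-0.16, limma on log2(FPKM + 1)). Flow cell FCH5Y3GBBXX alone (1 or 2 mice a group, added after seeing the data) gave 14 called members for Veh against WT, 2 for ACEi against Veh and 6 for ACEi against WT. There the ACEi and WT libraries also differed in the ending of their names. Flow cell FCH5V5HBBXX alone was not run for ACEi, which had 1 library there. No paired analysis was possible because the replicate numbers follow accession order and pair no mice. Genes under about 0.1 CPM, the level of 3 counts, are limited by depth.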
